A study of Homo sapiens with 2 samples.

Results

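The genes described here encode the machinery that removes poly(A) tails, takes off the 5′ cap and degrades mRNA in human cells. They are the listed members of 9 groups, from the CCR4-NOT deadenylase to the factors of nonsense-mediated decay, and the list names genes without setting a condition on their values. Of 48 listed genes, 45 had a probe set paired with that gene alone, and the 45 all passed the filter on dim values, among 13704 genes that did so. PABPC4, SMG1 and UPF3B had no such probe set and are not analysed here. The arrays measured total RNA from HCT116, an established line of human colorectal cancer cells, in 2 cultures grown in RPMI-1640 with serum. The first culture, HCT116-GFP (the GFP array), carries the genotype label of the wild type, and the second, HCT116-CPEB4, was made to over-express CPEB4 through a lentiviral vector. What vector, if any, the HCT116-GFP cells carry is not stated in the labels. Each was read on 1 array with biotin label, so no difference has a replicate check and no test between the groups can be made.

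Most mRNAs are degraded in steps. The PAN2-PAN3 and CCR4-NOT complexes shorten the poly(A) tail, after which the LSM1-7 ring and its partner PATL1 bind the shortened end and DCP2 hydrolyses the cap. XRN1 then degrades the body of the mRNA from the 5′ end, while the exosome works from the 3′ end. Nonsense-mediated decay brings the same nucleases to mRNAs whose translation stops too early. CPEB4 binds a sequence element in 3′ ends of mRNAs and regulates their tail length, and CPEB proteins are known to work with both polyadenylating and deadenylating enzymes.

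On the array labelled HCT116-CPEB4, the CPEB4 transcript did not read higher. The 3 kept probe sets of CPEB4 differed by −0.44 to −0.08 on the log2 scale, and which part of the transcript they read is not known here. Directions below therefore rest on the labels. Of 8 colon epithelial markers 7 passed the dim filter, among them EPCAM at 20994 on the GFP array and 20717 on the other and CDH1 at 3709 and 2954 (−0.33), and neither of the 2 leukocyte markers with a probe set passed it. Of 4 fibroblast markers 2 passed, COL1A1 and DCN. COL1A1 had kept probe sets between −3.05 and 0.63. DCN read at most 102 on either array, with 1.23 at its brightest probe set. All 3 kept DCN probe sets passed only through the array labelled HCT116-CPEB4, so the filter fixed their place above 0. The DCN probe sets under the filter lay below 0, between −2.46 and −0.57. Of 4 endothelial markers PECAM1 alone passed, with −0.66. VIL1 and CDH17, which mark differentiated intestinal cells, read no higher than 80.7 at any probe set on either array. The 3′ to 5′ signal ratio of ACTB was 8.23 on the GFP array and 10.3 on the other, and that of GAPDH 0.99 and 1.04. The part of these markers and ratios in the differences below was not tested. Each array reads a whole culture, so fewer cells with a transcript and less transcript per cell cannot be told apart.

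Differences are log2 intensities of the array labelled HCT116-CPEB4 minus those of the GFP array, taken for each gene at its brightest kept probe set. Intensities are in the arbitrary linear units of the deposited table, and they compare the arrays at one probe set, not genes with each other. The 45 members went both ways by small amounts. Their median was −0.04, beside 0.00 over all genes kept, and 21 lay above 0 and 24 below, where 50.1% of all genes lay above and 49.9% below. No member was higher by 2-fold or more, where 3.55% of all genes were. Lower by 2-fold or more was 1 member, SMG6, where 3.85% of all genes were. Those shares include dim genes, and 42 of the 45 members read at or above 377 on both arrays. Of the 7910 genes that did so, only 15 were higher and 4 lower by 2-fold or more. SMG6 passed the dim filter only through the GFP array, and 0 members were lower by 2-fold under the stricter filter.

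At a smaller step of 1.3-fold, chosen after the values were seen, 3 members were higher (CNOT3, EXOSC2 and EXOSC9) and 7 lower. Of all genes kept, 14.8% were higher and 15% lower by that much. Most members were bright on both arrays, and bright genes varied less. In 7910 genes with both intensities at or above 377, 7.09% were higher by 1.3-fold or more and 6.94% lower, and the middle 95% of their differences ran from −0.52 to 0.54. Of the 42 members in that range, 2 were higher and 6 lower by 1.3-fold or more. DCPS, CNOT8 and EXOSC7, 3 of the 42 members (7.14%), lay outside the middle 95%, and all 3 were below it.

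**Figure D1:**
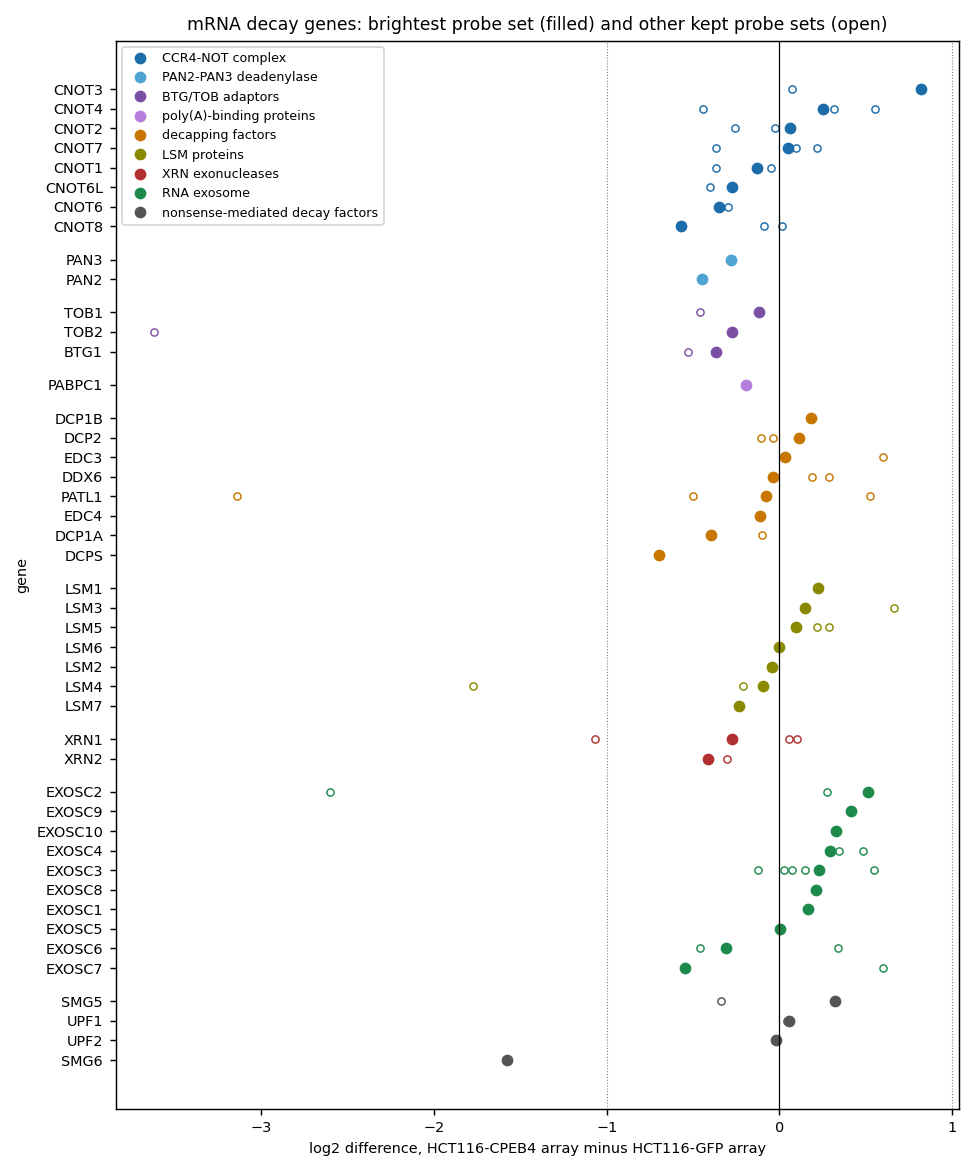
Log2 difference (x axis) for each of the 45 measured genes (y axis), grouped by complex, with the brightest probe set filled and other kept probe sets open; dotted lines mark 2-fold. The exosome lies mostly to the right of 0 with 8 of 10 subunits, the PAN2-PAN3, BTG/TOB and XRN genes lie to the left, and the open points beyond −1 come from kept probe sets that read 128 or less on the GFP array.

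**Figure D2:**
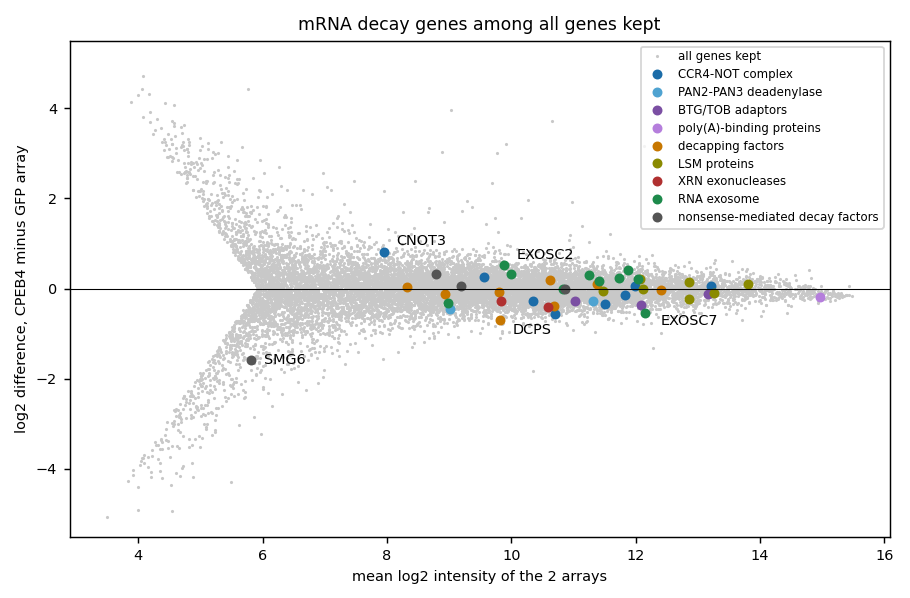
Log2 difference (y axis) against mean log2 intensity of both arrays (x axis) for all 13704 genes kept (grey) and the mRNA decay genes (coloured by group). SMG6 is the only member past 2-fold and is also the dimmest, kept through the GFP array alone, in the range where grey points spread widely.

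Among deadenylation genes, most nuclease subunits read lower on the array labelled HCT116-CPEB4. CNOT6, CNOT6L, CNOT7 and CNOT8 are the nucleases of CCR4-NOT, and PAN2 is that of PAN2-PAN3. Of these 5 genes, 4 lay below 0, where 49.9% of all genes lay, and their median was −0.35. Among the 4, CNOT8 and PAN2 were read only at probe sets marked for possible cross-hybridisation. That mark was given to every probe set name ending in _s_at or _x_at, and those of CNOT8 and PAN2 end in _s_at. Each was paired with that gene alone in the annotation, so the mark does not show that another gene was read. The subunits without nuclease activity, CNOT1 to CNOT4, had 3 of 4 above 0, beside 50.1% of all genes, and a median of 0.16. One of the 3, CNOT2, turned to −0.075 when its kept probe sets were averaged and to −0.028 when those marked for possible cross-hybridisation were left out. This division by enzyme activity was made after the values were seen, and the whole CCR4-NOT complex had 4 of 8 genes above 0 and a median of −0.04.

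CNOT8 had the lowest difference of the complex. It read 2035 on the GFP array and 1373 on the other (−0.57, or 1.48-fold). Its other probe sets differed by much less, at 1642 against 1545 (−0.09) and 657 against 665 (0.02), so the size of the CNOT8 difference rests on 1 probe set. Its close paralog CNOT7, which takes the same place in the complex, read 9349 and 9674 (0.05). Further CNOT7 probe sets gave 0.10 and 0.22, and a faint one gave −0.37.

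The CCR4-type nucleases were the more even pair. CNOT6 read 3298 against 2585 (−0.35) and at its second probe set 1514 against 1231 (−0.30). CNOT6L, its paralog, read 1436 against 1187 (−0.27) and 384 against 291 (−0.40). All kept probe sets of these paralogs thus lay below 0 within a narrow range. CNOT1, the scaffold on which the complex is built, was also lower at each of its 3 probe sets, by −0.37 to −0.05, with 3801 against 3471 at the brightest.

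CNOT3, a subunit of the NOT module that binds targets and regulators, had the highest difference of all members. It read 186 on the GFP array and 328 on the other (0.82, or 1.77-fold). Its second probe set gave 151 and 160 (0.08), and another one under the dim filter gave −0.54, so the probe sets of CNOT3 do not give a common size. CNOT2, the partner of CNOT3, differed by 0.06, with further probe sets from −0.26 to −0.03. The ubiquitin ligase CNOT4 read 688 and 821 (0.25), and 4 of its 5 probe sets lay above 0. Its faintest probe sets gave 0.32, kept only through the array labelled HCT116-CPEB4, and −0.44, kept only through the GFP array.

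Both genes of the PAN complex read lower, each at its only probe set. PAN2 read 604 on the GFP array and 443 on the other (−0.45), and PAN3, which tethers PAN2 to poly(A)-binding protein, read 2794 and 2297 (−0.28). PABPC1, the major cytoplasmic poly(A)-binding protein, read 34029 and 29769.6 (−0.19) at a probe set marked for possible cross-hybridisation. The PABPC1 difference was −0.06 after quantile normalization.

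BTG1, TOB1 and TOB2 are antiproliferative adaptors that link deadenylases to mRNAs or to PABPC1, and all 3 read lower at every kept probe set. BTG1 read 4909 against 3810 (−0.37) and 2370.2 against 1639 (−0.53). TOB1 read 9563 against 8808 (−0.12) and 308 against 224 (−0.46). TOB2 read 2280.3 against 1887 (−0.27), and its faint second probe set, kept only through the GFP array, read 128 against 10.4. Over these adaptors the median was −0.27, and it ran from −0.45 to −0.27 over 7 alternatives. Without the marked probe sets only TOB1 was left, at −0.12. Altogether, 10 of the 14 measured deadenylation members lay below 0, with a median of −0.23. Of all genes kept, 49.9% lay below 0, with a median of 0.00. Among the 10, CNOT8, PAN2, TOB2, BTG1 and PABPC1 were kept only at marked probe sets.

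A wider list of genes around deadenylation did not share that position. Of 22 measured genes, 12 lay below 0 and the median was −0.01. CNOT9, CNOT10 and CNOT11, which complete the CCR4-NOT complex, differed by 0.23, 0.19 and 0.05. The 5 kept probe sets of CNOT9 were all above 0. The faintest of them, at 45.6 against 77.7, passed only through the array labelled HCT116-CPEB4, so the filter fixed its sign. The deadenylase PARN differed by −0.03. By the rule of kept probe sets that share a sign, the lowest and highest genes of this wider list were PABPN1 and TOE1. PABPN1, the nuclear poly(A)-binding protein, read 204 against 111 (−0.88), and the nuclear deadenylase TOE1 read 382 against 545 (0.52). Each has 1 probe set, so agreement between probe sets could not be seen for either. TNRC6B, which brings CCR4-NOT to microRNA targets, was lower at all 7 kept probe sets, by −0.68 to −0.10. The −0.68 came from a faint TNRC6B probe set, 75.8 against 47.2, that passed only through the GFP array.

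Decapping factors differed little at most members and were lower at DCP1A and DCPS. The group had 3 of 8 genes above 0 and a median of −0.06. DCP2, the decapping enzyme, read 2551 on the GFP array and 2759 on the other (0.11), with −0.10 and −0.04 at its other kept probe sets. Its activator DCP1A read 1898 and 1445 (−0.39), with −0.10 at its second probe set, while the paralog DCP1B read 1481 and 1683 (0.18). The DCP1 paralogs therefore lay on opposite sides of 0.

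DCPS, the scavenger enzyme that hydrolyses the cap left after 3′ to 5′ decay, had the lowest difference among members bright on both arrays. It read 1150.4 on the GFP array and 709 on the other (−0.70, or 1.62-fold), at percentile 6.52 of all genes kept. DCPS had 1 probe set, so no second one bears on this value, which ran from −0.71 to −0.69 over the 8 alternatives.

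The enhancers of decapping differed little at their brightest probe sets. DDX6, the helicase that joins CCR4-NOT to decapping, read 5480.4 and 5345 (−0.04), with 0.19 and 0.29 at its other probe sets. EDC4, the scaffold, read 510.2 and 473 (−0.11). EDC3 differed by 0.03, with 0.60 at its second probe set. PATL1 read 915 and 866 (−0.08), but its kept probe sets ran from −3.14 to 0.52, so its direction is not settled.

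The LSM proteins form the ring that binds the 3′ end of deadenylated mRNA, and they lay on both sides of 0 with a median of 0.00 over 7 genes. LSM1, the subunit that marks the cytoplasmic ring, read 3996 on the GFP array and 4667 on the other (0.22), the highest of the group. LSM7 read 8044 and 6849 (−0.23), the lowest. None of the 7 passed 1.3-fold. LSM5 was above 0 at all 3 probe sets, by 0.10 to 0.29, and LSM6 read 4430.1 and 4432. LSM4 was below 0 at all 3, with −0.09 at the brightest. Its faintest, 111 against 32.4, passed only through the GFP array, so the filter fixed that sign. LSM8, which replaces LSM1 in the nuclear ring, differed by 0.07.

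Both 5′ to 3′ exonucleases read lower. The nuclear XRN2 read 1782 on the GFP array and 1336 on the other (−0.42), and 540.4 against 439 (−0.30) at its second probe set. XRN1, the cytoplasmic enzyme, read 1001 and 828 (−0.27) at its brightest probe set. Its next probe sets lay slightly above 0, at 0.10 and 0.06, and a faint one at −1.07. XRN2 was therefore lower at each probe set and XRN1 was not.

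In other decapping genes the median was 0.07 over 9 genes, with 5 above 0. PNRC1, a nuclear protein that can engage the decapping enzyme, read 3821 and 2429 (−0.65) at its only probe set, and EIF4ENIF1, which carries the cap-binding protein eIF4E into processing bodies, read 832 and 973 (0.23).

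Of the 10 subunits of the RNA exosome, 8 lay above 0, where 50.1% of all genes did, and the median was 0.22. EXOSC5 is among the 8 at 0.00. By 1.3-fold or more, 2 subunits were higher (20%) and 1 lower (10%), beside 14.8% and 15% of all genes. All 10 read at or above 377 on both arrays, and of such genes 7.09% were higher and 6.94% lower by that much. The exosome is a ring of 6 subunits (EXOSC4 to EXOSC9) under a cap of 3 (EXOSC1 to EXOSC3), with the nuclease EXOSC10 bound to it in the nucleus. Of its 22 kept probe sets, 17 lay above 0 and 5 below. These describe the same 10 genes again, with 6 probe sets from EXOSC3 alone. The share of all kept probe sets above 0 was not computed. The median stayed above 0 in all 8 alternatives, between 0.16 and 0.40, the latter over the 6 subunits left without marked probe sets. In that alternative EXOSC7 changed sign, from −0.55 to 0.60. EXOSC3 moved there from 0.23 to 0.55, at a faint probe set that read 87.5 on the GFP array and 128 on the other. So the 0.40 is not the same result at a larger size. The 35 members outside the exosome had 13 genes above 0 and a median of −0.09. The difference between these groups was not tested, since genes are not replicates.

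**Figure D3:**
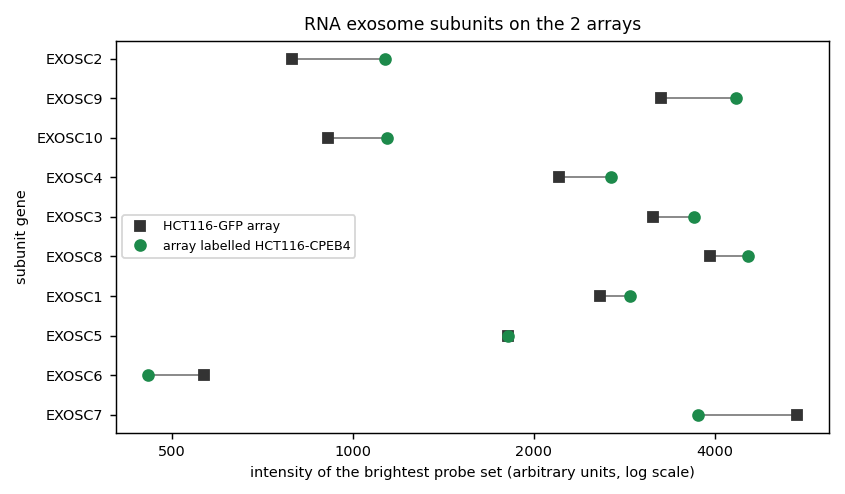
Intensity of the brightest probe set (x axis, log scale, arbitrary units) of each RNA exosome subunit gene (y axis) on the GFP array (squares) and the array labelled HCT116-CPEB4 (circles). The circle lies to the right of the square for 7 subunits, overlaps it for EXOSC5, and lies to the left for EXOSC6 and EXOSC7.

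The cap subunits EXOSC1, EXOSC2 and EXOSC3, which hold RNA-binding domains, all lay above 0. EXOSC2 had the highest difference of the complex and read 792 on the GFP array and 1132 on the other (0.52, or 1.43-fold). Its second probe set read 772 and 934 (0.27), and a faint one read 79.5 and 13.1, which turned the mean over its probe sets to −0.60. EXOSC3 read 3150.3 and 3688 (0.23), with 5 of 6 probe sets above 0, and EXOSC1 read 2575 and 2889 (0.17).

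Ring subunits went both ways. EXOSC9 read 3256 on the GFP array and 4335 on the other (0.41, or 1.33-fold). EXOSC4 read 2198 and 2692 (0.29), with 0.48 and 0.35 at its other probe sets, and EXOSC8 read 3922 and 4550.02 (0.21). EXOSC4 was thus higher at all 3 of its kept probe sets. EXOSC9 and EXOSC8 each have 1 probe set, and both of these are marked for possible cross-hybridisation. EXOSC1 and EXOSC10 were likewise each kept only at a marked probe set. EXOSC5 read 1811 and 1814, and its difference of 0.00 was just below 0 after quantile normalization and after median centring, which left 7 of 10 subunits above 0.

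EXOSC7 and EXOSC6 were the subunits below 0, and neither kept its sign over its probe sets. EXOSC7 read 5479 on the GFP array and 3753 on the other (−0.55, or 1.46-fold), whereas its second probe set read 290.3 and 441 (0.60). The mean over its probe sets was 0.03, so the direction of EXOSC7 is not settled. EXOSC6 read 565 and 456 (−0.31) and 281 and 205 (−0.46), against 153 and 194 (0.34) at a further probe set.

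EXOSC10, the nuclease of the nuclear exosome, read 909 and 1140.2 (0.33). The exosome nuclease DIS3 differed by 0.03 and its cytoplasmic relative DIS3L by 0.14. DIS3L2, which degrades uridylated RNA without the exosome, read 149 on the GFP array and 234 on the other (0.65), and its 3 kept probe sets ran from 0.65 to 0.81. SKIC2, the helicase that feeds mRNA to the cytoplasmic exosome, read 300.03 and 466 (0.63). RBM7, of the nuclear targeting complex, was lower at both kept probe sets, at 3552 against 2864 (−0.31) for the brightest. The 14 measured genes of this wider exosome list had 9 above 0 and a median of 0.04, closer to the median of all genes than the core subunits were.

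Since 8 exosome genes lay above 0 together, the 150 bases before their annotated starts were read from RefSeq (GRCh38.p14), which held promoters for 40 of the 48 listed genes and 8 of the 10 exosome genes. The sequences shown are those of the 3 subunits with the highest differences, of EXOSC3, which holds an interferon-type element, and of both lower subunits. Each runs 5′ to 3′ on the strand of the gene, and capitals mark matches on either strand to the GC box GGGCGG, the CCAAT box CCAAT, the NRF1 half-site TGCGCA and an interferon-type element, in which any 2 bases separate GAAA from GAAA. EXOSC2 lies at chr9:130693610-130693759 (+), EXOSC9 at chr4:121801173-121801322 (+), EXOSC10 at chr1:11099870-11100019 (−), EXOSC3 at chr9:37785093-37785242 (−), EXOSC6 at chr16:70251941-70252090 (−) and EXOSC7 at chr3:44976094-44976243 (+).
EXOSC2: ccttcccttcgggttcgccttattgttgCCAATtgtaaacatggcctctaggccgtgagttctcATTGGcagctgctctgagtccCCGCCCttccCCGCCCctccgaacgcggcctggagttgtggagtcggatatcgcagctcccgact
EXOSC9: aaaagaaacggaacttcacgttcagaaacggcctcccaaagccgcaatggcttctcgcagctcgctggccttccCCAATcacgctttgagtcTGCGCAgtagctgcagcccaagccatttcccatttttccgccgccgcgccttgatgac
EXOSC10: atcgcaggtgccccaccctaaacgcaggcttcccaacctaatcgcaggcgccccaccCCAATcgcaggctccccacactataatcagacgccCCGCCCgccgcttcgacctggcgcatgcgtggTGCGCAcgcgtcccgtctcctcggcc
EXOSC3: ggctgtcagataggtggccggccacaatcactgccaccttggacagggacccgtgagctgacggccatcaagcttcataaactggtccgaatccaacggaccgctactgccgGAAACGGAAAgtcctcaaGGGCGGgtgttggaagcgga
EXOSC6: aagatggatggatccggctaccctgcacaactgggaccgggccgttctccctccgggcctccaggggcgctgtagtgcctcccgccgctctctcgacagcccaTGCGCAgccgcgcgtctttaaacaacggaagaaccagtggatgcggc
EXOSC7: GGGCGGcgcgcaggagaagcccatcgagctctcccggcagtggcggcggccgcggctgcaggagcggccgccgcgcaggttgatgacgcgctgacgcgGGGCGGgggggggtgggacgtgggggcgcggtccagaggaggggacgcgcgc

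CCAAT matches were in the windows of EXOSC2, EXOSC9 and EXOSC10, and not in those of EXOSC3, EXOSC5 and EXOSC8, which also lay above 0, or of EXOSC6 and EXOSC7. Members below 0 held them too, among them BTG1, CNOT6, PAN2 and LSM4. Over the 9 exosome promoters, 33.3% held CCAAT, beside 22.4% of the 58 promoters of all members, 24.8% of the 15978 promoters of genes kept and 23.5% of all 35116. The GC box was in 77.8% of exosome promoters, 63.8% of members' promoters, 54.0% of those of genes kept and 36.8% of all. The NRF1 half-site was in 44.4% of exosome promoters (EXOSC5, EXOSC6, EXOSC9 and EXOSC10), 15.5% of members' promoters, 7.22% of those of genes kept and 5.21% of all, and EXOSC6 among these genes lay below 0. The interferon-type element was in both overlapping windows of EXOSC3 and in 1 of 2 of UPF2, and in 1.35% of the promoters of genes kept and 1.74% of all. The other motifs searched were the ETS motif CCGGAAG, the E-box CACGTG and the TATA box TATAAA. Of these, the E-box matched in EXOSC5, and the ETS motif and TATA box in no exosome promoter searched, beside 10.6% and 3.91% of the promoters of genes kept. No motif searched overlapped another in the windows shown. A match is a description of letters and not a site in use.

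Among the factors of nonsense-mediated decay, the central helicase and its partner hardly differed. UPF1, the helicase that commits an mRNA to decay, read 571 on the GFP array and 593 on the other (0.06), with 0.04 at its second probe set. UPF2, which activates UPF1, read 1865 and 1844 (−0.02). The range of these 3 probe sets is small beside the median gap of 0.27 between the 2 brightest probe sets of a gene over all genes kept.

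SMG6, the endonuclease that cuts mRNA near the premature stop, read 97.4 on the GFP array and 32.7 on the other (−1.58). It was kept only through the GFP array, since its second value lies under the dim filter of 60.8, so neither the size of this difference nor its rank among members can be read. Under the filter too were both values of its other probe set, 28.5 and 13.4 (−1.09). The SMG6 difference was −1.22 with 16 intensity units added before the log2, and SMG6 was no longer measured under the stricter filter or without probe sets marked for possible cross-hybridisation. SMG5, an adaptor in the dephosphorylation of UPF1, read 396 and 496 (0.33), with 163 and 129 (−0.34) at its other probe set, so its direction is not settled.

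Other nonsense-mediated decay genes had a median of −0.05 over 11 measured, with 4 above 0. The kinase cofactors SMG8 and SMG9 differed by −0.05 and −0.25. NBAS read 804 and 535 (−0.59) at its only kept probe set. The exon junction proteins EIF4A3, RBM8A and RNPS1 differed by −0.03, 0.06 and 0.03, while MAGOHB read 1025 and 1819 (0.83), with −0.03 at its second probe set. Over all 56 measured genes of the wider lists, 28 lay above 0 and 28 below. By 1.3-fold or more, 6 were higher and 6 lower, beside 14.8% and 15% of all genes. Of the 56, 0 passed 2-fold, where 3.55% of all genes were higher and 3.85% lower by that much.

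Transcripts known as substrates of nonsense-mediated decay had 6 of 8 measured genes below 0, where 49.9% of all genes lay, and a median of −0.25. Lower by 1.3-fold or more were 3 of the 8, beside 15% of all genes. GAS5, a small nucleolar RNA host transcript, read 158 and 93.2 (−0.76). The hosts and non-coding genes ZFAS1 and EPB41L4A-AS1 differed by −0.09 and −0.17, ZFAS1 with probe sets on both sides of 0. The stress genes ATF4, GADD45A and GADD45B, which respond to much besides decay, differed by −0.50, −0.34 and −0.45, and 1 of the 4 GADD45B probe sets lay above 0. ATF3 (0.32) and TBL2 (0.34) lay above 0, TBL2 with −0.16 at its second probe set.

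Agreement between probe sets limits how closely any member can be read. Of 28 members with 2 or more kept probe sets, 15 (53.6%) had all of them on one side of 0, as did 45.5% of 6520 such genes overall. A probe set that passed the dim filter through a single array could only read higher on that array, so the filter fixed its sign. The median gap between the 2 brightest kept probe sets of a gene was 0.22 for members and 0.27 for all genes. The 6 kept probe sets of members lower by 2-fold or more, in TOB2, PATL1, EXOSC2, LSM4, SMG6 and XRN1, all read under 37 on the array labelled HCT116-CPEB4 and no more than 128 on the other. No kept probe set of a member was higher by 2-fold.

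**Figure D4:**
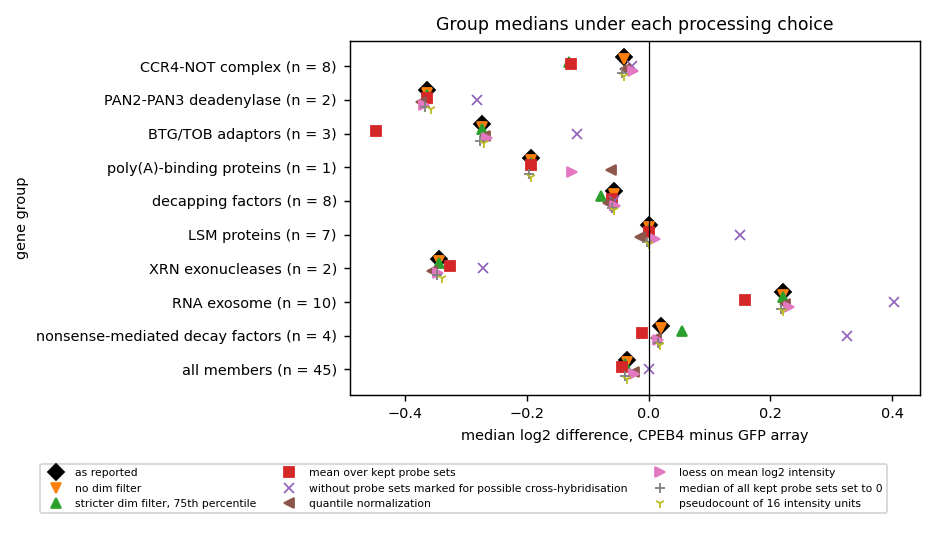
Median log2 difference (x axis) of each gene group (y axis, with the number of genes as reported) under the reported processing (black diamonds) and 8 alternatives; some alternatives measure fewer genes. The exosome median stays between 0.16 and 0.40, the latter over the 6 subunits left without marked probe sets, where EXOSC7 changed sign. The PAN2-PAN3, BTG/TOB, PABPC1 and XRN medians stay below 0 (without marked probe sets, 1 gene of PAN2-PAN3, BTG/TOB and XRN each and no PABPC1). The medians of LSM and nonsense-mediated decay genes cross 0.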

How the data were processed

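The authors' deposited values are linear intensities, 1 for each array at every probe set. The submitters' processing notes name Partek. How probes were summarised, corrected for background and scaled is not given in these sources, but both arrays had a trimmed mean of 500.1 (2% off each end). The number of arrays limits the precision. Gene names came from the platform annotation and were updated through Entrez identifiers to RefSeq (GRCh38.p14). Of 54675 probe sets, 41091 had 1 gene (41037 identifiers matched), 1801 had several and 11721 were unnamed here. Controls (62), several-gene and unnamed probe sets were left out. All sample columns were used. A probe set was kept if its higher intensity reached 60.8 (the 50th percentile of all values), and its log2 was taken without a pseudocount. Each gene took its kept probe set of highest mean log2 intensity. Calculations used Python 3.11.15 with pandas 2.3.3, and were tested on simulated data. In that simulation all probe sets of a gene shared the same difference, so it does not bear on probe sets that disagree. The members, the lists and the rule for named genes (each complex's highest and lowest member, every member past 2-fold, the 5 highest and 5 lowest wider pathway genes of 1 sign) were chosen with earlier results of these data known. A gene with 1 kept probe set met the sign rule by default. Further genes were named after their values were seen. The 8 alternatives changed the filter, the probe set rule, the scaling and the pseudocount. Probe sets called marked are those with names ending in _s_at or _x_at.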

Additional observations from a re-analysis of the deposited data

How the results depend on the processing

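Over the 8 alternatives, 97 of 111 values for counts and group medians kept their direction and moved by less than 0.1 (medians) or 1.5 times (counts). Some alternatives could hardly move them, so the 97 is no measure of robustness. Leaving out the dim filter left all these values as reported. Median centring moved the median of all members only from −0.036 to −0.039. Without probe sets marked for possible cross-hybridisation (30 members left), 14 members lay below 0 and none was lower by 2-fold, and the medians were 0.0012 for all members, −0.12 for BTG/TOB (TOB1 alone), 0.15 for LSM, 0.40 for the exosome and 0.33 for nonsense-mediated decay (SMG5 alone). With the mean over probe sets, 2 members (TOB2 and SMG6) were lower by 2-fold, the BTG/TOB median was −0.45 and that of nonsense-mediated decay −0.011, and EXOSC2 (−0.60) and EXOSC7 (0.028) changed sign, as did EXOSC7 (0.60) without the marked probe sets. Under the stricter filter, 0 members were lower by 2-fold. After quantile normalization the PABPC1 value was −0.062 and the LSM median −0.014, which was −0.0028 after median centring. In all, 10 members had the opposite sign in some alternative, and 3 of them (EDC3, LSM6, EXOSC5) under a scaling. No paired analysis was possible because each group has 1 array, and for the same reason no array could be left out. Dim values, as in SMG6, limit what can be read.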
